A study of Homo sapiens with 21 samples.

Results

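The genes described here are known direct targets of the transcription factor p53, listed by name, and their rows were read by symbol from 3 tables of a human lung epithelial cell line and its derivatives with an altered chromosome arm. Of 33 names listed, 32 were gene symbols found in the tables, out of 20597 gene names in all, and the remaining entry, TNFRSF10C_none, is no gene symbol. The rule names them as p53 targets and uses no measured value, although it was written with earlier results of these data known. All 32 were found among ribosome-protected fragments (RPF, the pieces of mRNA that a ribosome shields from nuclease) and in the chromosome 8 mRNA table, and 29 in the chromosome 3 mRNA table, where TIGAR, SUSD6 and PIDD1 were not analysed. The 21 libraries formed 7 groups of 3 biological replicates by the study's design text. Cells with the short arm of chromosome 3 lost (3p loss), cells with a gain of its long arm (3q gain) and cells labelled Chr3 WT gave mRNA. Another 3 libraries of 3p loss cells and 3 of cells labelled 3p WT gave RPF, from cultures exposed to cycloheximide for 5 min before lysis. Cells with the short arm of chromosome 8 lost (8p loss) and cells labelled 8p WT gave mRNA that was sequenced on another instrument. The labels name neither the parental line nor the number of clones behind each genotype, so differences between clones and effects of the arm cannot be told apart.

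p53 is a transcription factor that is kept scarce by the ubiquitin ligase MDM2 and accumulates after DNA damage, ribosome stress or mis-segregated chromosomes. It binds a DNA element made of a pair of 10-base units and raises genes for cell cycle arrest, cell death, DNA repair and metabolism, MDM2 itself among them. Through one of these, the cyclin-dependent kinase inhibitor p21 made from CDKN1A, cell cycle genes are repressed by the DREAM complex. In epithelia the p53 relative p63 can use similar DNA elements.

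Matches to this element could be read at some of these genes. RefSeq promoter windows (GRCh38.p14, 250 bases before to 50 after a start site) were in hand for 26 of the 32 genes, in 39 windows, and not for TRIM22, RRM2B, GADD45A, ASCC3, TP53INP1 and PHLDA3. The p53 consensus was searched for on both strands as 2 units of 10 bases with at most 1 base between them, at most 2 mismatches in all and the C and G of each core kept. It was found in 187 of 35116 windows of all genes, or 0.533%, and in 5 windows of 4 of the p53 target genes. One stretch for each of these 4 genes is shown, on the plus strand and with the consensus match in capitals: FAS at chr10:88991269-88991368, DDB2 at chr11:47214939-47214999, MDM2 at chr12:68808883-68808982 and AEN at chr15:88621266-88621339.
FAS: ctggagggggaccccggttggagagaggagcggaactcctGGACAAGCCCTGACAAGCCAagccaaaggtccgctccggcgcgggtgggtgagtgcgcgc
DDB2: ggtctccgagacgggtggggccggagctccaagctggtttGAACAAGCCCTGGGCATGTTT
MDM2: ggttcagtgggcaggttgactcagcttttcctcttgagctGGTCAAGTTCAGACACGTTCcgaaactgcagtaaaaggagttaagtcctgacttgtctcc
AEN: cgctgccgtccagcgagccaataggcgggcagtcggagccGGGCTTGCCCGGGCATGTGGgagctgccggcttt
The DDB2 match had 0 mismatches and a spacer of 1 base, and the other 3 had 2 mismatches and a spacer of 0. Counted from the start site of the window that held it, the match began 122 bases before in FAS, 94 in MDM2 and 34 in AEN. In DDB2 the match began 5 bases after that site. A gene can have other start sites further upstream. The genes themselves begin at chr10:88964050 (FAS), chr11:47214454 (DDB2), chr12:68808172 (MDM2) and chr15:88604683 (AEN), so all 4 matches lie inside their gene. A match describes letters in a window, and its use by p53 was not measured.

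RPF totals were 4622326 to 13607875 counts per library, and the depth behind the mRNA values, read as TPM (transcripts per 1000000), is unknown. RPF replicates 1 and 2 of each genotype were close to each other, with a chi-square per degree of freedom of 1.38 in 3p loss and 1.34 in WT, against 6.94 to 12.4 for pairs with replicate 3. Replicates 1 and 2 were slightly above sampling noise and were kept as separate libraries. How independent they are was not tested, so the RPF tests may count too many replicates. Among Chr3 WT mRNA libraries, replicate 2 was the lowest for 23 of the 29 p53 target genes and replicate 3 the highest for 20. The highest library of a gene was a median of 1.53 times the lowest in 3p loss mRNA and 1.37 times in 3q gain mRNA, and 1.84 times in their WT. This ratio was 1.24 in 3p loss RPF and 1.19 in WT RPF, and 1.07 in both chromosome 8 groups. Epithelial and basal airway markers were above 0 in all groups, for 12 of 12 genes, while of 4 leukocyte markers PTPRC and CD3E were at or near 0 throughout. The leukocyte marker CD14 was at 1.22, 1.62 and 9.05 TPM in 3p loss, 7.54, 6.14 and 5.05 TPM in 3q gain and 0.730, 1.51 and 0.615 TPM in WT cells, higher in every 3q gain library without passing the test (1.91 ± 0.51, adjusted p = 0.061, limma). The 6 fibroblast markers summed to 8.06 to 124 TPM in 3p loss against 5.19 to 6.38 TPM in WT mRNA. Most of that was DCN, with 75.8, 2.96 and 114 TPM in 3p loss and 2.57, 1.75 and 1.61 TPM in WT, and the markers also summed to 62.6 to 72.5 CPM in 3p loss RPF against 22.4 to 24.4 CPM in WT RPF, and to 9.10 to 9.44 TPM in 8p loss against 5.37 to 6.52 TPM in 8p WT mRNA. DCN rose in both (1.84 and 1.72). COL1A1 rose in 3p loss RPF (0.74) and fell in 8p loss mRNA (-0.49), where 2 of the 6 markers were tested. The part of the fibroblast markers in the results below was not tested.

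The question in 8p loss cells is whether losing that arm went with a change in p53 targets, none of which lies on 8p. p53 target mRNA rose nearly as a group. Of 32 genes, 28 were higher in 8p loss than in 8p WT cells (33.1% of all genes tested were higher), 2 were lower (36.0% of all genes), and TRIM22 and ASCC3 did not pass the test. The threshold was a Benjamini-Hochberg adjusted p under 0.05 over 12302 genes in limma on log2(TPM + 1), a scale that understates changes of low genes. The median log2 fold change was 0.87 over the 32 genes and -0.01 over all genes, and 13 of the 32 at least doubled on this scale. In 29 of the 32 every 8p loss library was above every 8p WT library, as in 35.1% of all genes tested. All 30 calls held whichever library was left out. Since these are bulk samples, a change in the share of cells with an active pathway and a change in RNA per cell cannot be told apart.

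**Figure D1:**
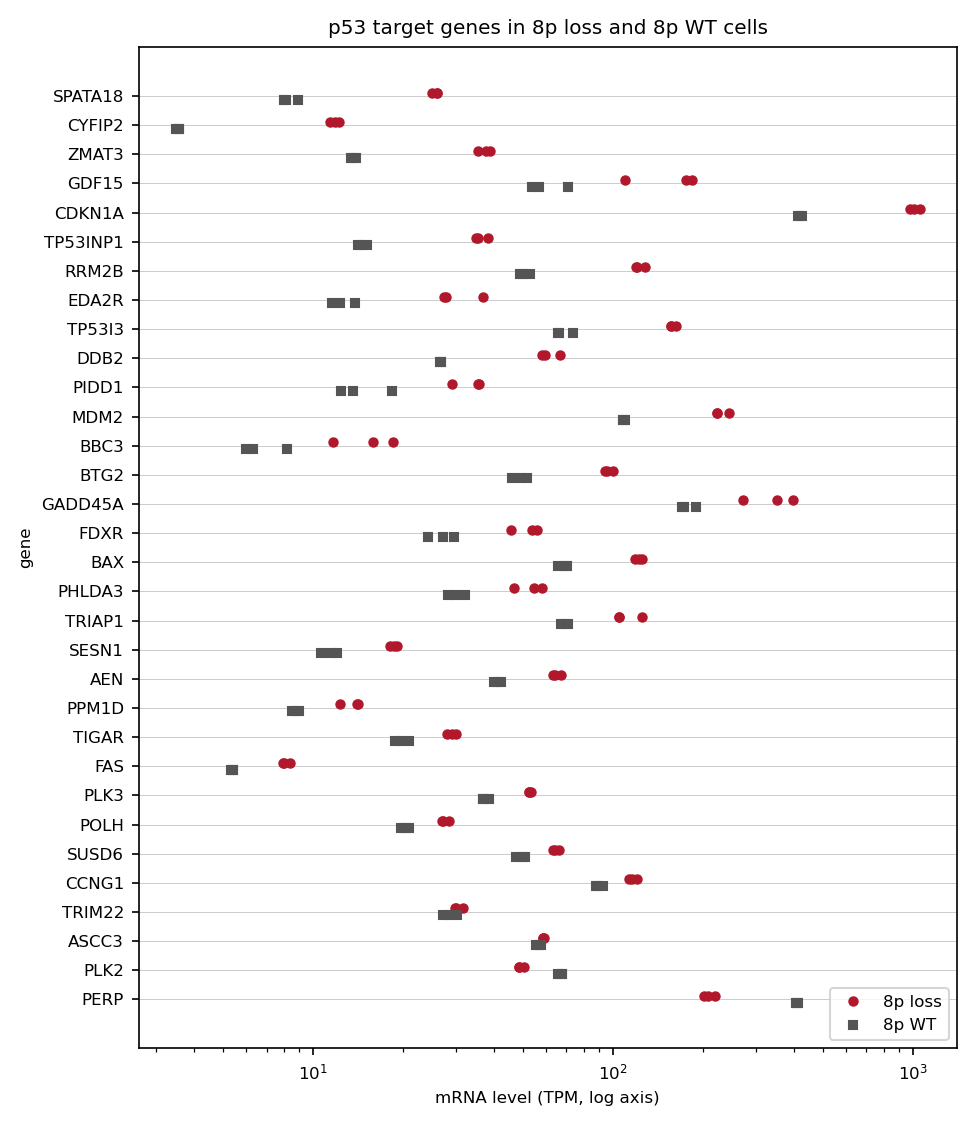
mRNA of the 32 p53 target genes in 8p loss cells (circles) and 8p WT cells (squares), 3 libraries each, in TPM on a log axis, ordered by fold change. The groups overlap for 1 gene, TRIM22, and the 8p loss libraries are the lower ones for PLK2 and PERP.

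Among arrest genes, CDKN1A (p21) was at 1055, 1011 and 978 TPM in 8p loss cells and 428, 422 and 415 TPM in 8p WT cells. Every 8p loss library was more than double every WT library, a log2 fold change of 1.26 ± 0.03 (SE, adjusted p = 4.3e-07, limma). BTG2, an antiproliferative factor that acts on mRNA deadenylation, had 93.9, 99.7 and 95.2 TPM against 51.6, 48.9 and 46.0 TPM. GADD45A, a growth arrest and DNA damage gene, had 352, 397 and 272 TPM against 189, 169.6 and 173 TPM. Both were higher with no overlap between groups, by 0.97 ± 0.05 and 0.92 ± 0.13 on the log2 scale. PLK3, a stress-responsive polo-like kinase, rose by 0.48 and CCNG1, which encodes cyclin G1, by 0.37. PLK2, a related kinase, went the other way, with 48.7, 48.7 and 50.3 TPM in 8p loss and 67.6, 67.6 and 65.7 TPM in 8p WT cells. Its fall was small but beyond the spread of the libraries, at -0.44 ± 0.03 (adjusted p = 2.2e-05, limma).

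Both feedback genes rose. MDM2 had 223, 222 and 243 TPM in 8p loss cells and 109.8, 108 and 108 TPM in 8p WT cells, so that the lowest 8p loss library was about double the highest WT library (log2 fold change 1.07 ± 0.04, adjusted p = 1.5e-06, limma). PPM1D, the phosphatase WIP1 that turns off p53 signalling, rose by 0.57 ± 0.06.

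Of 12 genes for apoptosis and survival, 11 rose in 8p loss cells. CYFIP2, a WAVE complex subunit, was at 11.8, 11.4 and 12.2 TPM against 3.59, 3.56 and 3.49 TPM. TP53INP1, a stress-induced p53 cofactor, was at 35.0, 35.6 and 38.4 TPM against 14.1, 14.4 and 15.2 TPM. The quinone oxidoreductase gene TP53I3 was at 156, 156 and 162 TPM against 73.5, 65.9 and 65.4 TPM. The groups did not overlap for these 3, and their log2 fold changes were 1.49 ± 0.05, 1.26 ± 0.05 and 1.20 ± 0.05. BAX, a pore former of the mitochondrial membrane, had 122, 118 and 125 TPM in 8p loss and 69.6, 70.4 and 65.7 TPM in 8p WT cells. BBC3, the BH3-only protein PUMA, had 15.8, 18.4 and 11.6 TPM against 8.17, 6.29 and 5.98 TPM. The death receptor gene FAS was low in both groups, with 7.92, 8.38 and 8.01 TPM against 5.32, 5.39 and 5.39 TPM. All 3 were higher without overlap, by 0.82, 1.05 and 0.51 on the log2 scale. The others that rose were PIDD1 (1.14), EDA2R (1.21), PHLDA3 (0.80), TRIAP1 (0.68) and AEN (0.64). PERP, a membrane protein needed for desmosomes and cell death, fell to 202, 219 and 208 TPM in 8p loss cells, against 409.9, 407 and 413 TPM in 8p WT cells. The groups were far apart, and PERP had the largest fall of the 32 genes (log2 fold change -0.96 ± 0.04, adjusted p = 1.3e-06, limma). Epithelial markers summed to 705 to 807 TPM in 8p loss and 1635 to 1710 TPM in 8p WT cells, with 4 of 5 lower. Basal airway markers summed to 4049.9 to 4164 TPM against 11095 to 11653 TPM, with 6 of 7 lower. Of all genes tested 36.0% were lower. Most of the basal sum was KRT5 and KRT17, with means of 6234 and 4100 TPM in 8p WT cells. The part of these markers in the PERP result was not tested.

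DNA repair, metabolic and other targets followed the same direction. RRM2B, the p53-inducible subunit of ribonucleotide reductase, had 119, 121 and 128 TPM in 8p loss and 49.9, 53.03 and 49.1 TPM in 8p WT cells. DDB2, which recognises UV damage, had 59.5, 57.8 and 66.5 TPM against 26.6, 26.4 and 26.6 TPM. In both genes each 8p loss library was more than double each WT library, with log2 fold changes of 1.26 ± 0.04 and 1.17 ± 0.05. SPATA18, a mitochondrial quality control gene, had the largest rise of the 32 genes on the log2(TPM + 1) scale, while with a pseudocount of 0.1 CYFIP2 rose more (1.70 for CYFIP2 and 1.60 for SPATA18). SPATA18 was at 26.0, 25.8 and 24.9 TPM in 8p loss and 8.02, 8.13 and 8.92 TPM in 8p WT cells (1.51 ± 0.05, adjusted p = 1.1e-06, limma). GDF15, a secreted stress cytokine, was at 175, 184 and 109 TPM against 70.8, 56.6 and 53.7 TPM. The rise of GDF15 was 1.33 ± 0.21, with 8p loss replicate 3 the lowest of its group and still above every WT library. ZMAT3, an RNA-binding zinc finger protein, rose by 1.39, FDXR (mitochondrial ferredoxin reductase) by 0.92 and SESN1 (a stress-induced brake on mTORC1) by 0.67. TIGAR (an enzyme that lowers glycolysis), POLH (a translesion polymerase) and SUSD6 (a transmembrane protein) rose by 0.53, 0.42 and 0.38. ASCC3, a DNA helicase, had 58.3, 58.4 and 58.8 TPM in 8p loss and 55.5, 56.8 and 57.6 TPM in 8p WT cells (adjusted p = 0.19, limma). TRIM22, an interferon-inducible ubiquitin ligase, had 29.7, 29.9 and 31.6 TPM against 28.4, 27.2 and 30.2 TPM (adjusted p = 0.16, limma).

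In the chromosome 3 cells, part of the p53 target mRNAs were lower than in WT. Of 29 genes, 10 were lower in 3p loss (8.80% of 11225 genes tested were lower) and 1, PERP, was higher (6.17% of all genes). In 3q gain, 7 of 29 were lower (2.67% of all genes) and 0 were higher (2.60% of all genes). With an unadjusted p under 0.05, 0 of them were higher as well, and the share of all genes was not counted there. The other 18 in 3p loss and 22 in 3q gain did not pass. The medians of the 29 genes were -0.51 in 3p loss and -0.36 in 3q gain, beside 0.01 and 0.02 over all genes. The 2 comparisons share the 3 WT libraries, so their values are given side by side and the genes they have in common are not counted as a result. These calls rested on few libraries: 3 of the 11 calls in 3p loss (DDB2, PLK3 and PERP) and 1 of the 7 in 3q gain (PLK3) held whichever library was left out. The count of genes lower in 3p loss was 3, 4 and 6 without 3p loss replicate 1, 2 and 3, and 3 without WT replicate 3. In 3q gain it was 3, 1 and 1 without 3q gain replicate 1, 2 and 3, and on leaving out a WT library it was 4 for replicate 1 and 1 for replicate 3. Epithelial and basal airway markers moved in the same libraries. Of these 12 genes, KRT19 was higher in 3p loss and in 3q gain (2.86 and 1.90), KRT14 was lower in each (-2.87 and -4.91), NGFR was lower in 3p loss (-2.12) and the rest did not pass. Their part in the p53 target values was not tested. With WT replicate 3 left out the medians were -0.28 for 3p loss and -0.25 for 3q gain.

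**Figure D2:**
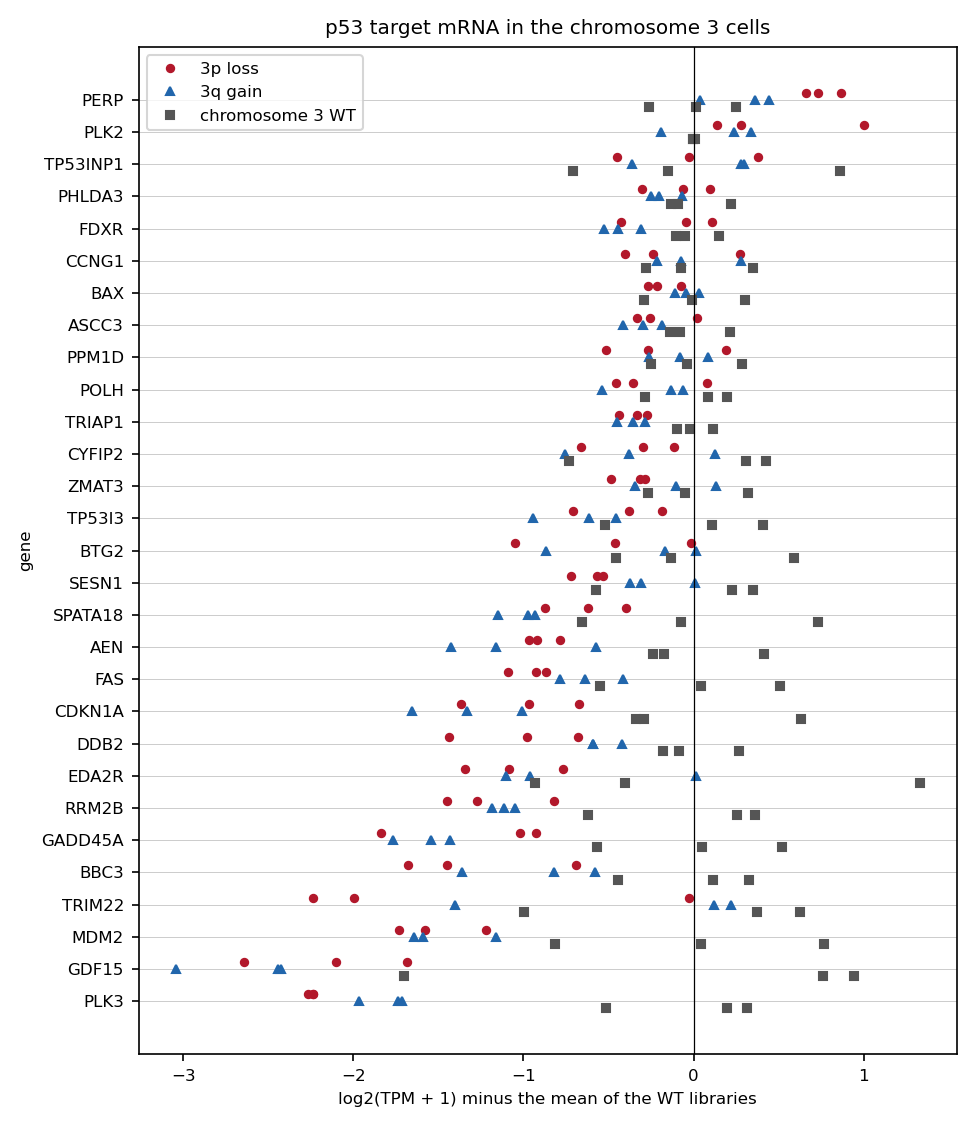
mRNA of 29 p53 target genes in 3p loss (circles), 3q gain (triangles) and Chr3 WT libraries (squares), 3 each, as log2(TPM + 1) minus the mean of the WT libraries. For PLK3 all altered libraries lie left of all WT libraries, PERP in 3p loss lies to the right, and the WT squares spread widely for GDF15, MDM2 and TRIM22.

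PLK3 had the largest fall in 3p loss. Its mRNA was at 3.29, 3.21 and 3.31 TPM in 3p loss, 5.18, 4.19 and 5.07 TPM in 3q gain and 13.2, 22.2 and 24.2 TPM in WT cells. No altered library reached the lowest WT library, and the log2 fold changes were -2.25 ± 0.22 in 3p loss (adjusted p = 0.00059) and -1.81 ± 0.22 in 3q gain (adjusted p = 0.005, limma). CDKN1A was at 124, 164 and 201 TPM in 3p loss, 102, 159.7 and 127 TPM in 3q gain and 263, 255 and 499 TPM in WT cells. The groups did not overlap, with WT replicate 3 well above the rest. Its changes were -1.003 ± 0.28 in 3p loss (adjusted p = 0.042) and -1.33 ± 0.28 in 3q gain (adjusted p = 0.03, limma). Without 3p loss replicate 1 the first of these had an adjusted p of 0.13. GADD45A was at 140.0, 73.8 and 131 TPM in 3p loss, 90.8, 98.0 and 77.6 TPM in 3q gain and 179.9, 382 and 276 TPM in WT cells, again without overlap (-1.26 ± 0.29 and -1.58 ± 0.29). Of the other arrest genes, BTG2, CCNG1 and PLK2 did not pass the test in either comparison.

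MDM2 was at 23.1, 33.5 and 25.8 TPM in 3p loss, 25.6, 34.8 and 24.6 TPM in 3q gain and 81.6, 44.7 and 136 TPM in WT cells. WT libraries differed widely from each other, replicate 3 being highest and replicate 2 lowest, and none overlapped the altered libraries. The changes were -1.51 ± 0.34 (adjusted p = 0.018) and -1.47 ± 0.34 (adjusted p = 0.042, limma). PPM1D did not pass in either comparison.

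Among cell death genes, BBC3 was at 5.98, 4.94 and 10.8 TPM in 3p loss, 9.80, 6.40 and 11.8 TPM in 3q gain and 19.6, 13.0 and 22.9 TPM in WT cells. It was lower in 3p loss (-1.27 ± 0.31, adjusted p = 0.025, limma) and did not pass in 3q gain (-0.92 ± 0.31, adjusted p = 0.12, limma). FAS was at 10.5, 12.4 and 11.9 TPM in 3p loss, 17.4, 14.7 and 13.2 TPM in 3q gain and 24.2, 15.7 and 33.7 TPM in WT cells. The 3p loss libraries lay under every WT library, while 3q gain overlapped WT (-0.96 ± 0.24 with adjusted p = 0.027, and -0.61 ± 0.24 with adjusted p = 0.17, limma). The 42 genes tested within 5 Mb of FAS had a median log2 fold change of 0.46 in 3p loss, opposite to FAS itself. AEN, an exonuclease linked to apoptosis, was at 13.4, 14.8 and 12.9 TPM in 3p loss, 17.3, 11.2 and 9.14 TPM in 3q gain and 22.04, 23.2 and 35.2 TPM in WT cells. It was lower in both without overlap (-0.89 ± 0.24 and -1.05 ± 0.24). PERP rose in 3p loss, with 454, 394 and 414 TPM against 207, 251 and 296 TPM in WT cells, and was at 256, 338 and 319 TPM in 3q gain. Every 3p loss library was above every other library (0.75 ± 0.15, adjusted p = 0.011, limma). BAX, TP53I3, TP53INP1, CYFIP2, TRIAP1, PHLDA3 and EDA2R did not pass in either comparison. EDA2R averaged under 1 TPM in both altered groups and passed the filter of a mean of 1 TPM through WT, mostly WT replicate 3.

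RRM2B was at 13.7, 15.6 and 21.8 TPM in 3p loss, 18.5, 17.6 and 16.7 TPM in 3q gain and 50.8, 25.2 and 47.1 TPM in WT cells. All altered libraries were below all WT libraries, and the changes were -1.18 ± 0.26 (adjusted p = 0.016) and -1.12 ± 0.26 (adjusted p = 0.042, limma). DDB2 was at 23.2, 32.2 and 39.8 TPM in 3p loss, 42.4, 42.5 and 47.9 TPM in 3q gain and 60.6, 56.7 and 77.8 TPM in WT cells. The 3 groups were stacked without overlap, lowest in 3p loss, with a change of -1.03 ± 0.20 in 3p loss (adjusted p = 0.008, limma) and -0.53 ± 0.20 in 3q gain (adjusted p = 0.14, limma). GDF15 was at 9.80, 6.44 and 13.4 TPM in 3p loss, 7.65, 7.53 and 4.62 TPM in 3q gain and 88.3, 13.2 and 77.5 TPM in WT cells. WT replicate 2 was far below the other WT libraries and below one 3p loss library, so that the fall of -2.14 ± 0.61 in 3p loss (adjusted p = 0.042, limma) goes with overlap. The fall in 3q gain was -2.64 ± 0.61 (adjusted p = 0.04, limma). POLH, ASCC3, SESN1, FDXR, SPATA18 and TRIM22 did not pass in either comparison.

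ZMAT3 is the one p53 target gene here on 3q, at chr3:179017223-179072513 (GRCh38.p14), the gained arm. Its mRNA was at 8.47, 12.2 and 10.2 TPM in 3q gain and 10.6, 8.97 and 14.0 TPM in WT cells. The groups overlapped, and the log2 fold change was -0.10 ± 0.20 (adjusted p = 0.79, limma). The 23 tested genes within 5 Mb of it had a median of 0.55. That ZMAT3 differs from its neighbours was not tested.

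Set directly against each other, 3p loss and 3q gain cells differed in 0 of 29 p53 target genes by limma, where 0.873% of all genes were higher and 3.06% lower. At an unadjusted p under 0.05, 1 was higher and 1 lower, and the shares of all genes at that threshold were not counted. PERP was higher in 3p loss than in 3q gain by 0.47 ± 0.15 (adjusted p = 0.14, limma) and DDB2 was lower (-0.50 ± 0.20, adjusted p = 0.25, limma). The median of the 29 genes was -0.04. A test that misses the threshold does not show that the 2 genotypes are alike.

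In footprints of 3p loss cells more p53 targets were higher than lower. Of 32 genes, 18 were higher in 3p loss than in WT RPF (35.1% of 11425 genes tested were higher), 5 were lower (34.2% of all genes) and 9 did not pass, by edgeR's quasi-likelihood test on counts with Benjamini-Hochberg adjustment over all genes. The median log2 fold change was 0.45, beside 0.02 over all genes. All 23 calls held whichever library was left out, though leaving out replicate 1 or 2 keeps the other, which is close to it. With these 2 replicates summed, all but the FDXR call held. The share of genes higher, 18 of 32, stands beside a background in which a large share of all genes was higher as well. Of the 12 epithelial and basal airway markers, 6 were higher and 4 lower in 3p loss RPF, with KRT19 at 3.03, EPCAM at 1.87 and KRT14 at -4.18, and their part was not tested. RPF replicate 3 of 3p loss was the lowest of its group for 12 of the 18.

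GDF15 had the largest rise in footprints, with 74.5, 84.5 and 62.6 CPM (counts per 1000000) in 3p loss and 10.5, 11.6 and 14.1 CPM in WT. The lowest 3p loss library was more than 4 times the highest WT library, and the log2 fold change was 2.61 ± 0.16 (adjusted p = 4.2e-08, edgeR). CDKN1A was at 210.2, 219 and 174 CPM in 3p loss and 87.6, 86.4 and 102 CPM in WT, without overlap (1.14 ± 0.11, adjusted p = 2.4e-06, edgeR). BTG2 was at 18.9, 20.0 and 12.6 CPM against 5.60, 6.91 and 4.99 CPM, also without overlap (1.55 ± 0.23). MDM2 was at 365, 347 and 368 CPM in 3p loss and 296, 274 and 266 CPM in WT. Its rise was small, 0.38 ± 0.08 (adjusted p = 0.0012, edgeR), yet every 3p loss library was above every WT library.

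Of 12 genes for cell death and survival, 8 rose in 3p loss RPF. TP53INP1 was at 10.4, 10.2 and 10.9 CPM in 3p loss and 2.40, 2.43 and 2.99 CPM in WT, resting on 50 to 158 counts in 3p loss and 13 to 24 counts in WT libraries (2.01 ± 0.23, adjusted p = 7e-06, edgeR). PERP was at 289, 296 and 209 CPM against 97.1, 97.8 and 134 CPM (1.27 ± 0.15). TRIAP1, a mitochondrial survival factor, was at 31.1, 31.3 and 16.5 CPM against 11.1, 10.6 and 10.5 CPM (1.27 ± 0.24). These 3 were higher without overlap, with 3p loss replicate 3 lowest of its group for PERP and TRIAP1. BAX was at 122, 123 and 89.1 CPM in 3p loss and 61.4, 70.0 and 63.6 CPM in WT (0.78 ± 0.14). FAS was at 34.4, 38.9 and 31.4 CPM against 24.9, 21.7 and 17.2 CPM (0.72 ± 0.16). CYFIP2 was at 66.4, 66.3 and 83.1 CPM against 45.1, 33.6 and 53.02 CPM (0.73 ± 0.16). In each of these the groups were apart, by less than double. PHLDA3, an inhibitor of AKT, was at 23.7, 21.2 and 31.1 CPM against 12.1, 15.3 and 20.1 CPM, and TP53I3 at 114, 104 and 113 CPM against 82.8, 80.6 and 80.2 CPM, rises of 0.71 and 0.46. BBC3 (-0.01 ± 0.25) and AEN (-0.03 ± 0.16) did not pass. The BBC3 value rested on 18, 26 and 77 counts in 3p loss and 37, 24 and 38 counts in WT libraries. EDA2R, a receptor of the TNF family, had 2, 2 and 14 counts in 3p loss and 27, 20 and 18 counts in WT libraries, so that it passed the filter on low counts through WT and had to be lower. It is counted among the 5 lower genes for that reason only, and no fold is given. PIDD1, the core of the caspase-activating PIDDosome, fell by 0.51 on the log2 scale.

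Among the rest, RRM2B was at 54.8, 57.1 and 48.3 CPM in 3p loss and 40.1, 35.7 and 33.6 CPM in WT (0.56 ± 0.13, adjusted p = 0.0016, edgeR). The groups did not overlap. RRM2B and TP53INP1 lie on the long arm of chromosome 8, where the 30 and 36 genes tested within 5 Mb of each had RPF medians of 0.50 and 0.65. Around CCNG1 on chromosome 5 the 14 genes tested had a median of 0.65, above the rise of CCNG1 itself (0.44). The part of these neighbourhoods in the 3 rises was not tested. FDXR was at 76.8, 84.2 and 72.3 CPM in 3p loss and 48.8, 45.7 and 68.1 CPM in WT (0.52 ± 0.15, adjusted p = 0.0069, edgeR), and with replicates 1 and 2 summed its adjusted p was 0.061. TRIM22 had the second largest rise, with 51.5, 49.0 and 33.6 CPM in 3p loss and 10.7, 8.40 and 7.86 CPM in WT (2.31 ± 0.20). TIGAR and SUSD6 rose by 0.65 and 0.69. DDB2 was at 80.3, 81.6 and 64.8 CPM in 3p loss and 61.5, 60.5 and 64.9 CPM in WT, just short of the threshold (adjusted p = 0.051, edgeR), and GADD45A changed by 0.17 ± 0.11 (adjusted p = 0.18, edgeR).

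The polo-like kinase genes fell in footprints. PLK3 was at 16.4, 18.2 and 23.4 CPM in 3p loss and 62.7, 68.7 and 66.6 CPM in WT (-1.72 ± 0.14, adjusted p = 5.2e-07, edgeR). PLK2 was at 44.2, 53.03 and 52.95 CPM against 93.0, 110.1 and 95.3 CPM (-0.97 ± 0.12). ASCC3 was at 333, 325 and 342 CPM against 584, 552 and 491 CPM (-0.69 ± 0.09). All 3 were lower in every 3p loss library. ZMAT3, POLH, PPM1D, SESN1 and SPATA18 were not called.

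mRNA and footprints of 3p loss cells could be set against each other for 29 genes. The footprint change exceeded the mRNA change in 19 (17.7% of 10107 genes tested) and fell short of it in 2, PLK2 and ASCC3 (18.2% of all genes), by the interaction of assay and genotype in limma on log2(TPM + 1) and log2(CPM + 1). The median of this difference was 0.86, beside -0.01 over all genes, and 13 of the 21 calls held whichever library was left out. Leaving out single libraries gave 13 to 21 genes with a higher and 1 to 2 with a lower footprint change. The ASCC3 call (adjusted p = 0.041, limma) was lost without 8 of the 12 single libraries, at 0.055 to 0.10, the PLK2 call in none. mRNA and RPF came from separate libraries that the labels do not pair, and their WT cells carry different labels. A change in ribosome loading and a difference between the cultures therefore cannot be told apart.

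**Figure D3:**
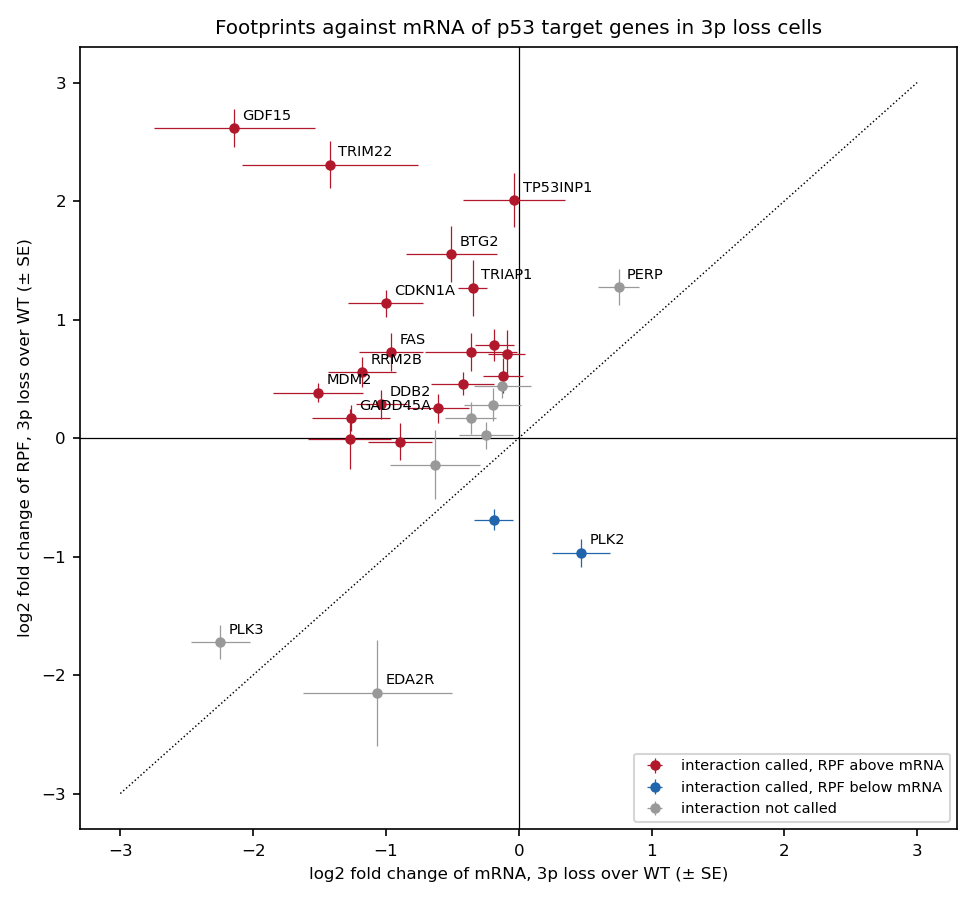
Log2 fold change of RPF (vertical) against that of mRNA (horizontal), 3p loss over WT, for 29 p53 target genes, with bars of 1 SE and a dotted line where both are equal. Of these, 19 lie above the line with a called difference, 2 below it, and 5 genes called in both assays lie in the upper left, lower in mRNA and higher in RPF.

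CDKN1A, MDM2, FAS, RRM2B and GDF15 passed both tests in opposite directions, lower in 3p loss mRNA and higher in 3p loss RPF. Of all 10117 genes tested in both assays 0.791% did so, and of the 906 lower in 3p loss mRNA 8.83% were higher in RPF. The differences of the 2 changes were 4.66 ± 0.72 for GDF15, 2.12 ± 0.33 for CDKN1A, 1.88 ± 0.39 for MDM2, 1.72 ± 0.33 for RRM2B and 1.66 ± 0.32 for FAS. Since these 5 were picked for opposite calls, the differences are a description. Every 3p loss library was below every WT library in mRNA for 4 of the 5, GDF15 excepted (16.9% of all genes tested), and above it in RPF for all 5 (36.5% of all genes tested). The mRNA calls of these 5 were each lost on leaving out at least 1 library, and their footprint calls were not. Genes tested within 5 Mb of RRM2B had medians of -0.19 in 3p loss mRNA and 0.50 in RPF, opposite in direction as RRM2B was. Around CDKN1A, MDM2, FAS and GDF15 the medians were 0.01, 0.13, 0.46 and 0.19 in mRNA. In RPF they were -0.16, 0.19, 0.25 and 0.36. The part of these neighbourhoods was not tested.

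**Figure D4:**
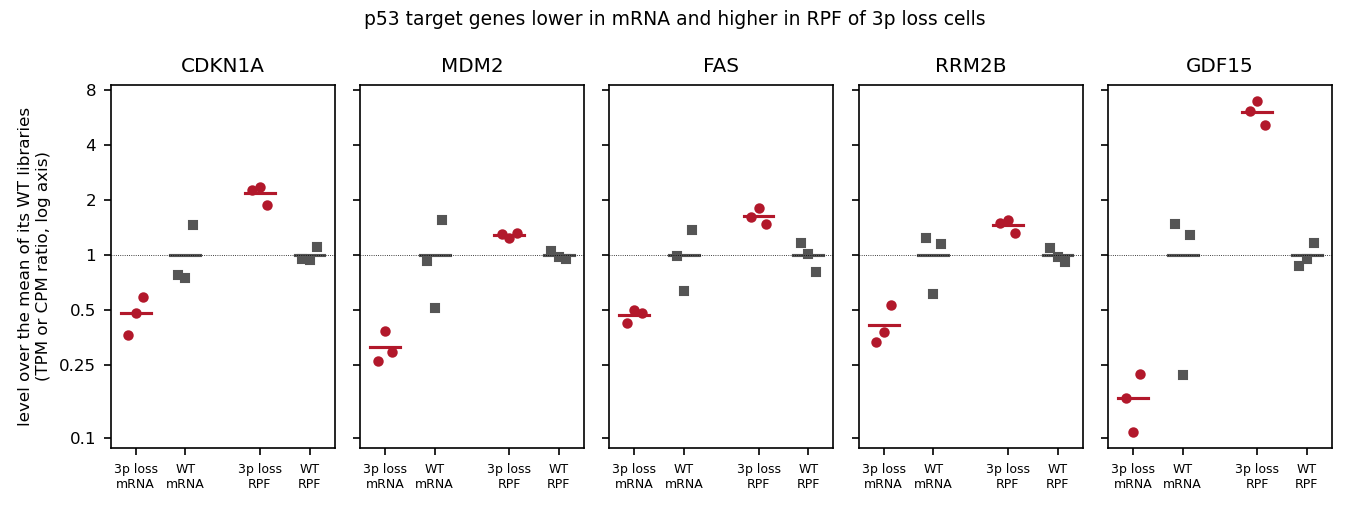
Levels of 5 genes in 3p loss (circles) and WT libraries (squares), for mRNA on the left and RPF on the right of each panel, each divided by the mean of the WT libraries of that assay, on a log axis with bars at group means. In all 5 the 3p loss libraries lie under the WT mean for mRNA and over it for RPF. GDF15 has 1 low WT library in mRNA.

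Other genes showed the same excess of footprints with 1 of the 2 changes not called. BBC3, DDB2, AEN and GADD45A were lower in mRNA and not called in RPF, with differences of 1.22 ± 0.38, 1.30 ± 0.26, 0.86 ± 0.26 and 1.42 ± 0.35. TRIM22 had 3.63, 2.92 and 17.1 TPM in 3p loss and 22.9, 8.28 and 27.5 TPM in WT mRNA, which overlapped, and a difference of 3.60 ± 0.71. BTG2 (1.90 ± 0.41), TP53INP1 (1.71 ± 0.46) and TRIAP1 (1.51 ± 0.28) were higher in footprints with no called change of mRNA. The 27 genes tested within 5 Mb of TP53INP1 had a median difference of 0.74, and their part was not tested. PERP rose and PLK3 fell in both assays, with no called difference between the assays (adjusted p = 0.12 and 0.18, limma). PLK2 had 130.1, 237 and 144 TPM in 3p loss and 118, 118 and 119 TPM in WT mRNA, every 3p loss library being higher without passing the test, while its footprints fell, a difference of -1.45 ± 0.26 (adjusted p = 0.0011, limma).

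Side by side, the 10 genes lower in 3p loss mRNA were all among the 28 that rose in 8p loss mRNA, and 16 of the 18 that rose in 3p loss RPF were among them. The tables were normalized separately and no test across them was made. With 28 of 32 genes higher in 8p loss, such sharing is largely set by that count. The other 2 that rose in 3p loss RPF were TRIM22, not called in 8p loss, and PERP, which was higher in 3p loss mRNA and RPF and lower in 8p loss mRNA.

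Of 13 regulators and relatives of p53, 6 rose and 3 fell in 8p loss mRNA, with a median of 0.06, beside 33.1% and 36.0% of all genes. CDKN2A, whose ARF product restrains MDM2, rose by 1.14 ± 0.25, and TP63, the gene for p63, fell by 1.31. TP63 had 57.1, 56.1 and 60.6 TPM in 8p loss and 143, 147 and 146 TPM in 8p WT cells. In 3p loss RPF 3 rose and 7 fell, beside 35.1% and 34.2% of all genes, among them the checkpoint kinase gene CHEK1 (1.06), MDM4 (0.57), the kinase gene HIPK2 (-2.30) and the acetyltransferase gene EP300 (-1.23). In mRNA, TP73 was higher and EP300 lower in both 3p loss (1.34 and -0.86) and 3q gain (1.58 and -0.75), and the other 11 did not pass in either. ATR and TP63 lie on 3q.

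Of 22 further p53-induced genes, 12 rose and 6 fell in 8p loss mRNA (median 0.45), beside 33.1% and 36.0% of all genes, and RPS27L, a ribosomal protein paralog (1.29), and KITLG, the ligand of KIT (0.98), were among those that rose. SFN, the cell cycle arrest protein stratifin, fell (-0.88). TNFRSF10B, a TRAIL receptor, also fell (-0.64) and lies on the lost arm. TNFRSF10C lies there too and did not fall. It was at 9.75, 8.29 and 9.31 TPM in 8p loss and 8.44, 7.60 and 7.59 TPM in 8p WT cells. In 3p loss mRNA 0 of 21 rose and 6 fell (median -0.52), beside 6.17% and 8.80% of all genes. In 3q gain 0 rose and 2 fell (median -0.28), beside 2.60% and 2.67% of all genes. At an unadjusted p under 0.05 0 rose in either, by limma, and the share of all genes at that threshold was not counted. The largest fall in 3p loss was in XPC, a DNA damage sensor whose gene lies on the lost 3p arm (-1.55). XPC was at 9.04, 12.9 and 15.4 TPM in 3p loss and 34.6, 31.3 and 48.7 TPM in WT cells. In 3q gain it was at 22.3, 23.0 and 25.5 TPM, also below every WT library. In 3p loss RPF 7 of 19 rose and 5 fell (median 0.07), shares near the 35.1% and 34.2% of all genes. TNFRSF10B was lower in 3p loss mRNA (-0.84 ± 0.20) and higher in RPF (1.59 ± 0.09). PMAIP1, the BH3-only protein NOXA, rose in RPF by 1.72 ± 0.16. The 5 that fell in RPF were FUCA1, PTP4A1, SFN, STEAP3 and XPC. FUCA1 was at 30.9, 34.7 and 28.2 CPM in 3p loss and 96.0, 81.4 and 82.3 CPM in WT. STEAP3 was at 15.4, 14.9 and 15.5 CPM against 41.5, 38.1 and 49.4 CPM. The footprint change exceeded the mRNA change in 7 of 19 and fell short of it in 3, by limma (median 0.43). Of all genes tested these shares were 17.7% and 18.2%.

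Of 24 cell cycle genes that p53 represses through p21 and the DREAM complex, all 24 fell in 8p loss mRNA, with a median of -0.85, where 36.0% of all genes fell. MYBL2, the transcription factor B-MYB, was at 193, 201 and 189.8 TPM in 8p loss and 462, 473 and 473 TPM in 8p WT cells (-1.27 ± 0.03). The mitotic kinase gene CDK1 was at 48.3, 47.7 and 50.8 TPM against 116, 115 and 114 TPM (-1.22 ± 0.03), and the smallest fall was in MCM5 (-0.21). Every 8p loss library was below every 8p WT library for all 24, as for 38.6% of all genes tested. In 3p loss mRNA 3 were higher and 0 lower (median 0.35), beside 6.17% and 8.80% of all genes. The 3 were AURKA (0.78 ± 0.17), CDC20 (0.67 ± 0.13) and CENPF (0.58 ± 0.14). At an unadjusted p under 0.05, 9 of the 24 were higher and 0 lower. In 3q gain 1 was higher (median of the 24 genes 0.26), beside 2.60% of all genes. It was ECT2 (0.75 ± 0.17), whose gene lies on 3q. At an unadjusted p under 0.05, 7 of the 24 were higher and 0 lower in 3q gain. The shares of all genes at an unadjusted p were not counted. The AURKA and CENPF calls were lost without WT replicate 3 (adjusted p = 0.057 and 0.077, limma), the CENPF call also without WT replicate 2 or 3p loss replicate 1 or 2 (0.062, 0.063 and 0.070), and the ECT2 call without WT replicate 2 or 3 or any 3q gain library (0.057 to 0.14). In 3p loss RPF 5 were higher and 11 lower (median -0.23), beside 35.1% and 34.2% of all genes, with CCNB2 at 0.77, FOXM1 at -1.51 and PLK1 at -1.35. The footprint change fell short of the mRNA change in 13 of 24, beside 18.2% of all genes, and exceeded it in 0, by limma, and in 0 at an unadjusted p under 0.05 as well.

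**Figure D5:**
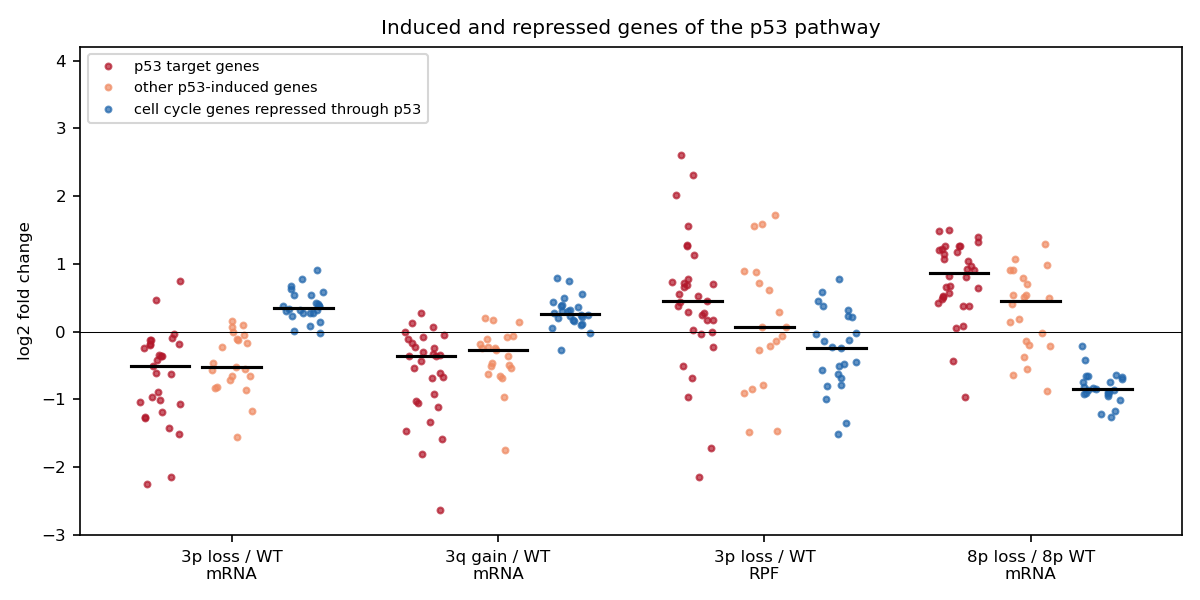
Log2 fold changes of the 32 p53 target genes, 22 other p53-induced genes and 24 cell cycle genes repressed through p53, one point per gene tested, with black lines at medians. In 8p loss the target genes (median 0.87) and the cell cycle genes (-0.85) lie on opposite sides of 0. In 3p loss and 3q gain mRNA the signs of these medians are the other way round. In 3p loss RPF the medians are 0.45 and -0.23, with the same signs as in 8p loss.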

How the data were processed

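Per the labels' protocols, polyA RNA was sequenced from the chromosome 3 cells, chromosome 8 mRNA libraries were sequenced separately, and RPF libraries came from cycloheximide-treated cells. RPF values were deposited by the authors as whole-number counts, not normalized. The mRNA tables as deposited held values scaled by the authors, read here as TPM because their column sums were 904850 to 916783 and 861114 to 881074. Their unit is unnamed, so TPM and FPKM cannot be told apart. The build was GRCh38, per the submitters' processing notes. Not given in the sources used here were the aligner, the counter and the annotation. Of 20915 RPF entries, 1061 named by transcript were left out (0.432 to 0.568% of counts), and 30 chromosome 8 entries sharing a name were summed. Per-sample columns not used numbered 0.

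For mRNA, limma 3.58.1 in R 4.3.3 was run with a trend on log2(TPM + 1) where the mean over libraries reached 1 TPM. One fit held all 9 chromosome 3 libraries. RPF counts were tested in edgeR 4.0.16 (quasi-likelihood, TMM, filterByExpr), its SE being the log2 fold change divided by the root of F. CPM values are scaled by the TMM library sizes. All adjusted p are Benjamini-Hochberg over all genes tested, with a threshold of 0.05. Positions and promoter windows came from RefSeq, GRCh38.p14. Scripts were tested on simulated data. Values per library are given for the 20 genes called in most comparisons, though not in every comparison, and the rest by counts and fold changes. EDA2R, SPATA18, TRIM22, ASCC3, ZMAT3 and the named genes of other lists were added for their values. One gene of the regulator list is not reported here. The p53 target genes and all lists were chosen with earlier results of these data known.

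Same-numbered 3p loss and 3q gain mRNA libraries deviated together (r = 0.116, 0.151 and 0.141 over genes), so their direct contrast was also fitted with the replicate number as a block. It called 0 genes of the 29 either way. Alternatives were DESeq2 1.42.0, pseudocount 0.1, other filters, median centring, no trend, the groups compared alone, a replicate block, RPF replicates 1 and 2 summed, and each library left out.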

Additional observations from a re-analysis of the deposited data

Results flagged for a closer look

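The change in 3p loss against WT was in opposite directions in the 2 assays for 5 p53 target genes, called lower in mRNA and higher in RPF. They are among the 19 whose footprint change exceeded the mRNA change by limma, but since they were picked for opposite calls the sizes are a description and no further test. The RPF change minus the mRNA change was 4.66 on the log2 scale for GDF15, 2.12 for CDKN1A, 1.88 for MDM2, 1.72 for RRM2B and 1.66 for FAS. For all 5, every 3p loss RPF library was above every WT RPF library, and all but GDF15 had every 3p loss mRNA library below every WT mRNA library. The mRNA and RPF of WT cells came from separate libraries with different labels, and the part of that in the difference was not tested. Genes tested within 5 Mb of RRM2B had medians of -0.19 in mRNA and 0.50 in RPF, and their part was not tested.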

How the results depend on the processing

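In 8p loss mRNA and 3p loss RPF, counts of p53 target genes called stayed within 1.5 times their reported value under all alternatives and all libraries left out. The RPF median was 0.50 with a mean of at least 10 CPM. DESeq2 called 18 higher and 5 lower in RPF. In 3p loss mRNA the count lower was 6 with the 2 groups fitted alone and 3 to 9 with a library left out, with a median of -0.73 to -0.28. In 3q gain it was 2 with no filter, 4 without trend, 3 with the groups alone and 1 to 5 with a library left out, with a median of -0.63 to -0.25. The footprint minus mRNA median was 0.90 with pseudocount 0.1, 0.81 with median centring and 0.79 to 1.12 with a library left out, and the genes with a lower footprint change were 1 with the replicate block and 1 to 2 with a library left out. Signs turned for uncalled values. The 3p loss against 3q gain median was -0.13 to 0.05 with a library left out, and BBC3 in RPF was 0.0234 with replicates 1 and 2 summed. With a library left out, ranges were -0.17 to 0.10 for BBC3 and -0.16 to 0.0505 for AEN in RPF, and -0.24 to 0.0553 for ZMAT3 in 3q gain. The cause of these moves was not tested.

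Whether replicate numbers pair the other groups was not settled. Same-numbered libraries of these groups correlated at -0.174 to 0.207. Those of RPF correlated at 0.106, 0.036 and 0.124, against -0.119 to 0.060 for unlike numbers. A block there may share only a number. With the replicate block the counts lower were 10 in 3p loss and 5 in 3q gain mRNA, the counts higher were 19 in RPF, 19 for footprints minus mRNA and 28 in 8p loss, and 0 genes were called between 3p loss and 3q gain. Depth limits the RPF values of EDA2R, TP53INP1, BBC3, SPATA18 and BTG2, with few counts in some or all libraries, and cannot be judged for TPM.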
